A study of Mus musculus with 8 samples.

Results

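The 10 genes described here encode subunits of two-pore potassium channels and were chosen by symbol (Kcnk1, Kcnk2, Kcnk3, Kcnk4, Kcnk5, Kcnk6, Kcnk9, Kcnk10, Kcnk12 and Kcnk13) out of 24060 gene rows. All 10 were found, and all 10 passed the filter on low values that left 15605 genes for testing. The libraries came from the cortex of 4 young adult mice, about postnatal day 80, of both sexes, with the sex of each animal not given. Every animal carried 1 copy of Aldh1l1-creERT2, a tamoxifen-inducible Cre under control of the astrocyte gene Aldh1l1, and 1 Ribotag allele, which after Cre recombination puts a hemagglutinin (HA) tag on the ribosomal protein Rpl22. From each animal, cleared lysate gave an input library and RNA precipitated with the tagged ribosomes gave an HA IP library, so that the 4 HA IP and 4 input libraries (animals 579, 580, 581 and 595) differ in RNA fraction and share genotype, age and tissue. No library from animals without Cre was analysed here, so RNA that comes down without the tag was not measured.

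Two-pore potassium channels are dimers in which every subunit contributes a pair of pore loops. They pass potassium at rest with little dependence on voltage and so help set the resting membrane potential and input resistance. The family divides into TWIK (Kcnk1 and Kcnk6), TREK and TRAAK (Kcnk2, Kcnk10 and Kcnk4), TASK (Kcnk3 and Kcnk9), the alkaline-activated Kcnk5, and THIK (Kcnk12 and Kcnk13) channels. In astrocytes Kcnk1 and Kcnk2 products have been described as carriers of the passive potassium conductance, whereas TASK channels are best known from neurons and the Kcnk13 channel from microglia.

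The libraries held 33834388 to 53625125 fragments, as recovered from the steps of the deposited values. As a check of the labels, Aldh1l1 measured 21.8 ± 0.926 FPKM in the inputs and 406 ± 26.2 FPKM on the tagged ribosomes (SD, n = 4 each). All 10 astrocyte markers examined were higher in HA IP and all 10 neuron and all 10 microglia markers lower (limma, adjusted p under 0.05). All oligodendrocyte, precursor and endothelial markers were lower too, whereas of 6 mural cell markers 4 were lower, Vtn did not pass and Pdgfrb was higher, with 2.36 (SE 0.12). Summed over each list, the neuron markers lay at 88.6 to 114 FPKM in HA IP against 2313 to 2534 in input, and the microglia markers at 9.72 to 12.4 against 149 to 158.5, and none of these 20 genes was at 0 in all HA IP libraries. Both fractions of an animal come from the same lysate, so these differences are in the RNA recovered and not in the number of cells. In these bulk samples, marker RNA left in HA IP from tagged ribosomes and from RNA that comes down without the tag cannot be told apart.

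All 10 two-pore channel transcripts were found in every library, in proportions that differed between HA IP and input. Kcnk1, Kcnk2 and Kcnk10 rose in HA IP, and Kcnk3, Kcnk4, Kcnk5, Kcnk6, Kcnk9, Kcnk12 and Kcnk13 fell (limma with animal as a block, Benjamini-Hochberg adjusted over 15605 genes). The counts of 3 higher and 7 lower stand beside 42.9% of all tested genes higher and 42.5% lower, and the median log2 fold change was -1.66 over the 10 genes and 0.00 over all genes tested. Kcnk5 and Kcnk9 reached the filter through their input level: Kcnk5 held 10 fragments, scaled to a library of median size, in only 2 HA IP libraries and Kcnk9 in 0, so Kcnk9 could enter the test only with a higher input. Log2 fold changes are given after scaling by trimmed mean of M-values (TMM), which moved log2 ratios up by 0.83 before the pseudocount of 0.1 FPKM is added and by less for low genes after it. They are on log2(FPKM + 0.1), which makes differences of low genes smaller. On the deposited scale, where 24.3% of genes were higher and 62.8% lower, the same 3 two-pore channel genes were higher and the same 7 lower. The median log2 fold change over all genes tested was -0.75 on that scale, so the 0.00 above depends on the TMM scaling.

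Levels in FPKM are scaled to the authors' gene lengths, recovered here as 2303 bases for Kcnk1, 13316 for Kcnk2 and 1207 for Kcnk9. Set against each other on those lengths, they put Kcnk1 first in both fractions. Whether the transcripts present have these lengths was not tested. In HA IP the order of means was Kcnk1, Kcnk2, Kcnk10, Kcnk3, Kcnk4, Kcnk12, Kcnk6, Kcnk9, Kcnk13 and Kcnk5, spanning 2020-fold. Within that order the ranges of Kcnk3 and Kcnk4, of Kcnk12 and Kcnk6, of Kcnk6 and Kcnk9 and of Kcnk9 and Kcnk13 overlapped, so that only the first 3 places and the last were separate from both sides. In input the order was Kcnk1, Kcnk9, Kcnk4, Kcnk3, Kcnk12, Kcnk2, Kcnk10, Kcnk6, Kcnk13 and Kcnk5, spanning 139-fold, and no neighbours overlapped. Kcnk9 thus stood second in input and eighth in HA IP, while Kcnk2 stood sixth and second.

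**Figure D1:**
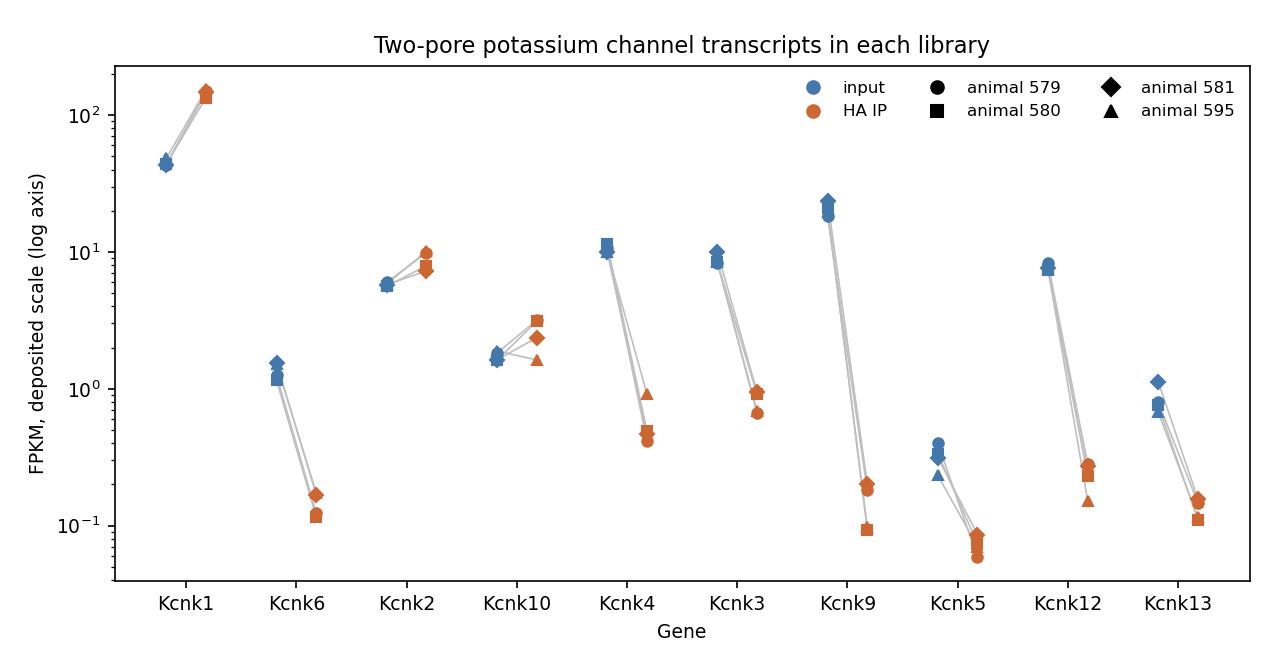
FPKM on the deposited scale (log axis) of the 10 genes in each of the 8 libraries, with input in blue, HA IP in orange, 1 marker shape per animal and grey lines joining the libraries of an animal. For Kcnk10 the groups overlap, through animal 595. Of all genes tested, 42.9% were called higher and 42.5% lower, and the share without overlap was not counted.

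The share of each gene in the summed FPKM of the 10 does not depend on scaling between libraries, but it does on the gene lengths. Kcnk1 made up 91.6 ± 0.669% of the sum in HA IP and 43.7 ± 2.04% in input (SD, n = 4 each). Kcnk9 made up 0.0899 ± 0.0343% in HA IP and 20.1 ± 1.80% in input. The 7 genes that fell together took 48.9 ± 2.24% of the sum in input and 1.32 ± 0.136% in HA IP, and no HA IP library exceeded 1.45%. Kcnk2 and Kcnk10 kept similar shares in both fractions, Kcnk2 with 5.49 ± 0.664% in HA IP and 5.67 ± 0.262% in input and Kcnk10 with 1.62 ± 0.506% and 1.70 ± 0.146%. These shares were not tested, and the sum itself, on the deposited scale, averaged 160 ± 9.17 FPKM for HA IP and 102 ± 2.55 FPKM for input.

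**Figure D2:**
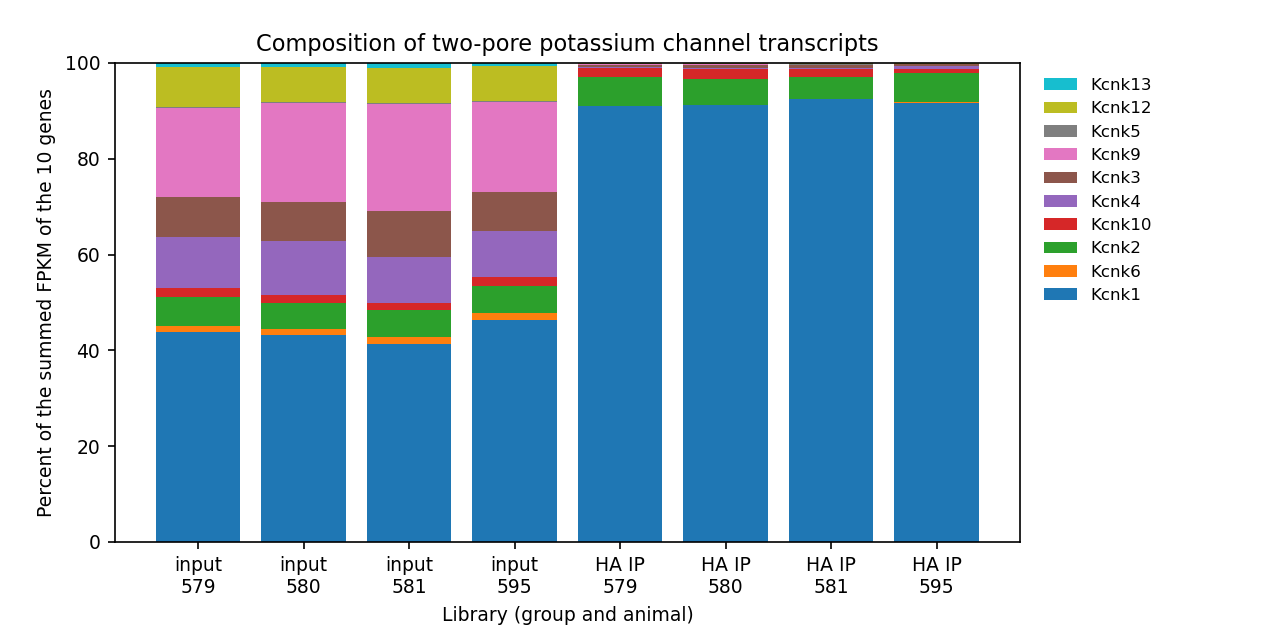
Percent of the summed FPKM of the 10 genes taken by each gene (vertical axis) in the 4 input and 4 HA IP libraries. Kcnk1 fills over 90% of every HA IP bar, while 7 genes that take 46.2% to 51.6% of each input bar are thin lines there.

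Of the TWIK genes, Kcnk1 was the most abundant two-pore channel transcript of the tagged ribosomes. Its level in HA IP was 150, 134, 147 and 154 FPKM in animals 579, 580, 581 and 595, and in input 43.5, 43.8, 43.4 and 48.2 FPKM. Every HA IP library lay above every input library. Its log2 fold change was 2.53 (SE 0.06, adjusted p = 3.15e-08), a 5.8-fold difference, and 2.46 to 2.65 in the single animals. Among all genes tested, 6.09% had a higher log2 fold change. On the deposited scale the ratio of the means was 3.27.

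Kcnk6, whose product TWIK-2 is known from macrophages and vessels, went the other way. It stood at 0.123, 0.116, 0.169 and 0.174 FPKM in HA IP and at 1.26, 1.15, 1.55 and 1.51 FPKM in input, animals in the same order. The groups did not overlap, with 21 to 31 fragments behind the HA IP values and 167 to 331 behind the inputs. The log2 fold change was -1.94 (SE 0.13, adjusted p = 3.98e-06), and ran from -2.36 with a pseudocount of 0.01 FPKM to -0.76 with 1 FPKM. In HA IP, Kcnk1 therefore exceeded Kcnk6 by 599-fold and in input by 30.7-fold, on FPKM + 0.1.

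The TREK subfamily, whose channels respond to membrane stretch, heat and lipids, was split. Kcnk2, which encodes TREK-1, had 9.84, 7.93, 7.28 and 10.1 FPKM in HA IP and 6.02, 5.62, 5.75 and 5.83 FPKM in input. All HA IP values lay above all inputs, though the lowest, in animal 581, was close to them. In the paired fit the log2 fold change was 1.39 (SE 0.10, adjusted p = 5.38e-06). That rise depends on the scaling for its size, with 0.58 on the deposited scale (adjusted p = 7.62e-04) and 0.99 with upper quartile scaling.

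Kcnk10, which encodes TREK-2, had 3.16, 3.11, 2.36 and 1.63 FPKM in HA IP and 1.82, 1.62, 1.63 and 1.89 FPKM in input. Animals 579, 580 and 581 were higher in HA IP, but in animal 595 the HA IP value was below its own input and within the range of all inputs. Its log2 fold change was 1.28 (SE 0.20, adjusted p = 5.55e-04), with 1.59, 1.73, 1.26 and 0.54 in the 4 animals. On the deposited scale it was 0.49 (adjusted p = 0.0422), and animal 595 had -0.20. Without animal 595 the TMM-scaled value was 1.53 (adjusted p = 8.31e-05). The HA IP library of animal 595 also had the lowest fragment total of the 8. Among the HA IP libraries it had the highest sums of neuron markers, 114 FPKM against 88.6 to 109, of oligodendrocyte markers, 15.4 against 13.6 to 14.9, and of microglia markers, 12.4 against 9.72 to 11.8. Its sum of the 6 mural cell markers was the highest too, 47.1 against 14.8 to 36.4 FPKM, but 38.9 FPKM of it was Vtn, while Kcnj8 was lowest there and Rgs5 was not the highest. Precursor and endothelial sums were not highest there, at 3.23 FPKM against 5.345 in animal 581 and 2.41 FPKM against 2.65 in animal 579. Within the neuron and microglia lists, Slc17a7 was not the highest there and C1qa was the lowest. The part of these values in the Kcnk10 result was not tested.

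Kcnk4, which encodes TRAAK, a channel of neurons that sits at nodes of Ranvier, fell. Its HA IP values were 0.418, 0.496, 0.464 and 0.924 FPKM and its input values 10.7, 11.4, 10.07 and 10.05 FPKM. No values of the groups overlapped, and within HA IP animal 595 was the highest, with 54 fragments against 33 to 38. This gave a log2 fold change of -3.27 (SE 0.18, adjusted p = 1.72e-06), or -3.50 without animal 595. The depth and marker sums of that library are given above for Kcnk10, and their part in this value was not tested.

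Start regions of the TREK subfamily and of Kcnk1 are shown because they include a subfamily with genes of both directions. They run from 250 bases before to 50 bases after a transcript start in RefSeq (GRCm38.p6, the most upstream of the starts in the promoter table), 5′ to 3′, and 7 of the 10 genes had an entry. The annotated spans of Kcnk1, Kcnk2 and Kcnk4 begin farther upstream than these starts. Capitals mark matches, on either strand, to the motifs named after them.
Kcnk1, chr8:125994852-125995151 (+ strand): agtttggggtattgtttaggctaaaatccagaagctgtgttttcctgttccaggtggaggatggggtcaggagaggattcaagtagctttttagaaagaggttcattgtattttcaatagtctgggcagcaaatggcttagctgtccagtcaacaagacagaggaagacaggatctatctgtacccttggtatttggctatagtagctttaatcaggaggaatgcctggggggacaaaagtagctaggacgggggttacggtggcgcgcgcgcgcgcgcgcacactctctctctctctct
Kcnk2, chr1:189402224-189402523 (- strand): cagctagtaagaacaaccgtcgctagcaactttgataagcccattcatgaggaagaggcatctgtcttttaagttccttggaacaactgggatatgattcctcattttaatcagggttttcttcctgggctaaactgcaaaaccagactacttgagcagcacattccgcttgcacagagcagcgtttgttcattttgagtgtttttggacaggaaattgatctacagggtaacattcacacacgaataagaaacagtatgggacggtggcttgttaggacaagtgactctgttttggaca
Kcnk10, chr12:98578164-98578463 (- strand): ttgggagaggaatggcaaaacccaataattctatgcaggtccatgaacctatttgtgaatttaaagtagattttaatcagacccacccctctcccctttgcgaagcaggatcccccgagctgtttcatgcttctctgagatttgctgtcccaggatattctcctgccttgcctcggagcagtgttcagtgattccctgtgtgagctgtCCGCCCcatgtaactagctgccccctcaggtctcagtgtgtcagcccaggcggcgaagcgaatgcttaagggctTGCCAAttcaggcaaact
Kcnk4, chr19:6934466-6934765 (- strand): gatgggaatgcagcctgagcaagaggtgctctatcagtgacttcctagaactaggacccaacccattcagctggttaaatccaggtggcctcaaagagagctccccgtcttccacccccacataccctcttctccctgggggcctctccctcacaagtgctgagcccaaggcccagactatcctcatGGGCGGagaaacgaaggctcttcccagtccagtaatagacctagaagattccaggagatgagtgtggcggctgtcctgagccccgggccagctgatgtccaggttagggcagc
The regions were searched on both strands for 4 motifs, which do not overlap in the printed regions. The GC box, spelled GGGCGG here, occurs in 35.7% of 32851 start regions of this length. A half-site of nuclear factor I, spelled TTGGCA, occurs in 14.1% of them. The TATA box, spelled TATAAA, occurs in 13.6%, and a SOX core, spelled ACAAAG, in 18.7%. Kcnk10 held 1 GC box and 1 half-site, Kcnk4 held 1 GC box, and Kcnk1 and Kcnk2 held none of the 4. The GC content was 49.0% for Kcnk1, 43.0% for Kcnk2, 51.0% for Kcnk10 and 57.3% for Kcnk4, with a median of 52.7% over all start regions. No motif of the 4 was shared by the 3 genes that rose.

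Both TASK genes, whose acid-sensitive channels are closed by receptors that act through Gq, fell, Kcnk9 by far more than Kcnk3. Kcnk9, which encodes TASK-3, had 0.181, 0.0934, 0.203 and 0.0979 FPKM in HA IP and 18.3, 20.8, 23.5 and 19.6 FPKM in input. The HA IP values rest on 10, 5, 11 and 4 fragments, and 4 fragments have an exact 95% Poisson interval of 1.09 to 10.2, which covers counting error only. Input libraries held 786 to 1271 fragments. The log2 fold change was -5.76 (SE 0.16, adjusted p = 5.01e-08), the fourth lowest of all genes tested, -6.33 with a pseudocount of 0.01 FPKM and -3.78 with 1 FPKM. On the deposited scale the mean input level was 143 times that in HA IP.

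Kcnk3, which encodes TASK-1, had 0.661, 0.912, 0.947 and 0.683 FPKM in HA IP and 8.33, 8.37, 9.98 and 8.46 FPKM in input. The groups were far apart, and the animals gave log2 ratios of -2.66, -2.24, -2.51 and -2.71. Over all 4 the log2 fold change was -2.53 (SE 0.11, adjusted p = 5.51e-07). Next to the 10 neuron markers, whose log2 fold changes ran from -4.43 for Gad2 to -2.36 for Rbfox3, Kcnk3, Kcnk4 and Kcnk12 lay inside that range and Kcnk9 lay below all 10, at this pseudocount. Kcnk3 and Kcnk4 also lay inside the ranges of the oligodendrocyte (-3.57 to -2.40), precursor (-3.44 to -0.80) and microglia (-3.46 to -1.67) markers. Kcnk3 lay inside the endothelial range (-2.65 to -1.27) too. Kcnk12 lay below the oligodendrocyte, precursor, microglia and endothelial ranges, with 10 to 25 fragments behind its HA IP values. The cells that these transcripts came from were not tested.

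Kcnk5, which encodes TASK-2, was the least abundant member in both fractions. It had 0.0587, 0.0739, 0.0862 and 0.0704 FPKM in HA IP, from 8 to 13 fragments, and 0.401, 0.336, 0.314 and 0.233 FPKM in input, from 39 to 48 fragments. Its groups did not overlap. The log2 fold change was -0.79 (SE 0.16, adjusted p = 0.00231), the smallest of the 10, but its level is near the pseudocount, and it was -1.23 with 0.01 FPKM and -0.18 with 1 FPKM in place of 0.1, and -1.28 on the deposited scale. The ratio of the mean deposited levels was 4.45 in favour of input.

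Of the THIK genes, which encode halothane-inhibited channels, Kcnk12 fell more than Kcnk13. Kcnk12 had 0.281, 0.231, 0.274 and 0.152 FPKM in HA IP and 8.24, 7.40, 7.60 and 7.50 FPKM in input. Animal 595 had the lowest HA IP value, from 10 fragments, and the inputs were tightly grouped. It had a log2 fold change of -3.85 (SE 0.14, adjusted p = 1.97e-07), and -2.37 with a pseudocount of 1 FPKM. Kcnk13, which encodes THIK-1, the resting potassium channel of microglia, had 0.147, 0.110, 0.157 and 0.115 FPKM in HA IP and 0.800, 0.761, 1.13 and 0.676 FPKM in input. Its log2 fold change was -1.39 (SE 0.14, adjusted p = 5.24e-05), -1.77 with a pseudocount of 0.01 FPKM and -0.47 with 1 FPKM, while the 10 microglia markers had -3.46 for Csf1r to -1.67 for Aif1. Kcnk13 is near the pseudocount and most of these markers are not, so the values are not on an equal footing.

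**Figure D3:**
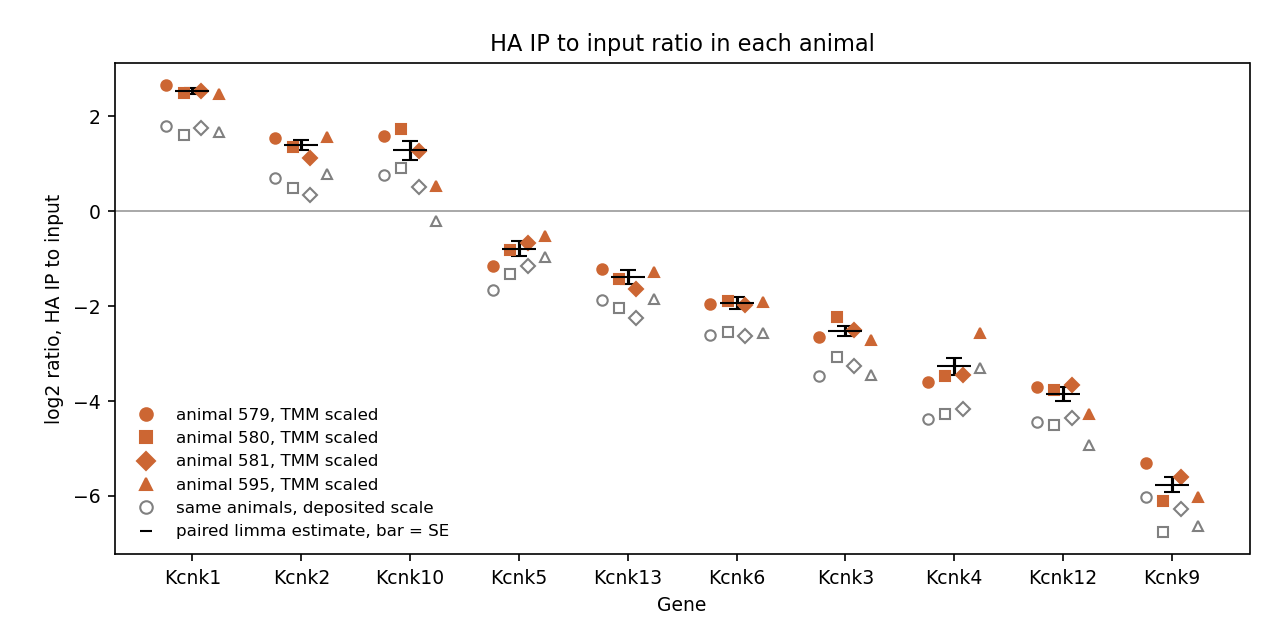
Log2 ratio of HA IP to input for each gene, as filled symbols after TMM scaling and open symbols on the deposited scale, 1 shape per animal, with the paired limma estimate and its SE in black. Kcnk1, Kcnk2 and Kcnk10 lie above 0 after scaling, and animal 595 alone drops below 0 on the deposited scale, for Kcnk10.

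The ratio of 2 members of a subfamily within 1 library removes the scaling between libraries, except through the pseudocount, and 6 such pairs were compared. The pseudocount of 0.1 FPKM was added on the deposited scale, so ratios with genes near that level still depend on the scaling. In each of 5 pairs the HA IP and input ratios did not overlap (two-sided exact permutation test, 4 against 4, p = 0.0286, the smallest this design can give, adjusted p = 0.0343 over the 6 pairs). That test does not use the pairing by animal, and the paired exact sign flip over 4 animals gave p = 0.125 for each of the 5, the smallest it can give, so they do not pass with the replicate block. The ratio of Kcnk1 to Kcnk6 was higher in HA IP by 4.29 on the log2 scale, that of Kcnk2 to Kcnk4 by 4.61, and that of Kcnk3 to Kcnk9 by 3.11. The ratio of Kcnk4 to Kcnk10 was lower by 4.52 and that of Kcnk12 to Kcnk13 by 2.56. With a pseudocount of 1 FPKM the Kcnk1/Kcnk6 difference was 2.73 and the Kcnk3/Kcnk9 difference 1.79. All 4 animals had the same direction in each of these 5 pairs. The share of other gene pairs without overlap was not counted. Of all genes tested, 42.9% were higher and 42.5% lower, so the count of 5 is not particular to these subfamilies.

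Some of these ratios changed places. Kcnk9 exceeded Kcnk3 by 2.32-fold in input, whereas Kcnk3 exceeded Kcnk9 by 3.73-fold in HA IP, both on FPKM + 0.1. Kcnk4 exceeded Kcnk2 by 1.8-fold in input, and Kcnk2 exceeded Kcnk4 by 13.6-fold in HA IP. By contrast Kcnk2 and Kcnk10 kept a ratio of 3.41 in HA IP and 3.21 in input, a difference of 0.09 on the log2 scale (exact permutation test, p = 0.943, adjusted p = 0.943). The single animals gave -0.06, -0.41, -0.17 and 0.99, so a difference of this spread was not detectable, and equal change was not shown. The last of these values is animal 595, without which the difference was -0.22.

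**Figure D4:**
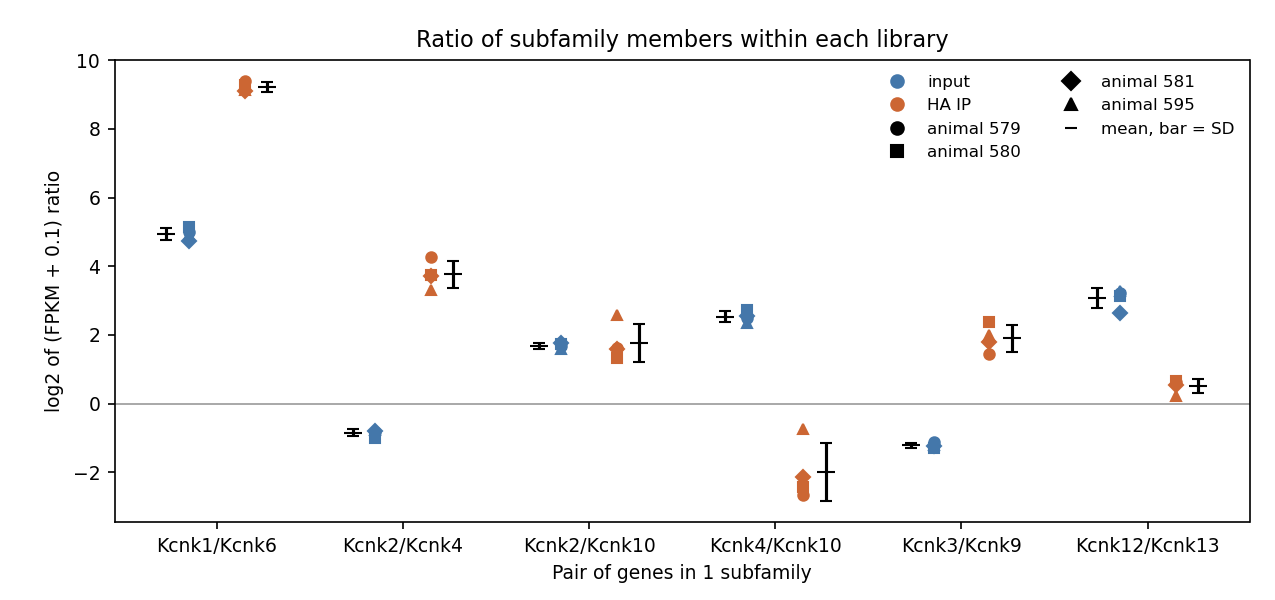
Log2 ratio of FPKM + 0.1 between 2 genes of a subfamily in each library, input in blue and HA IP in orange, 1 shape per animal, with mean and SD (n = 4) in black. The groups are apart in 5 pairs and overlap for Kcnk2/Kcnk10, where animal 595 stands highest in HA IP. The share of other gene pairs whose groups are apart was not counted.

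The 10 genes lie on 9 chromosomes in RefSeq (GRCm38.p6). Kcnk10 (chr12:98429432-98578213) and Kcnk13 (chr12:99963149-100062682) share a chromosome, 1385 kb apart, and moved in opposite directions. Between them lie 9 protein-coding genes, of which 7 were tested, 2 were higher and 4 lower. Over all genes tested, 42.9% were higher and 42.5% lower. Kcnk2, Kcnk3, Kcnk4, Kcnk10 and Kcnk13 overlap noncoding gene models in that annotation, and the strand setting of the authors' counting is not given in the sources used here, so reads of overlapping genes may not be fully separated for these 5.

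The remaining genes of the family were near or at 0. Kcnk15 and Kcnk16 were at 0 fragments in all HA IP libraries and had at most 4 and 3 fragments in an input library, and Kcnk18 had at most 2 in HA IP and 3 in input. Kcnk7, which has not been shown to form a working channel on its own, was the one tested gene of these 4. HA IP libraries held 13 to 23 fragments of it and inputs 3 to 9. It passed the filter through its 4 HA IP libraries alone and so could enter the test only with a higher HA IP level, and its annotated span overlaps Ehbp1l1.

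Transcripts of proteins described to bind, move or modify two-pore channels went in both directions. Of 16 listed genes, 4 were higher, 10 lower and 2 did not pass, with a median log2 fold change of -0.69, beside 42.9% higher, 42.5% lower and a median of 0.00 over all genes tested. On the deposited scale 3 were higher and 13 lower, beside 24.3% and 62.8% of all genes. Pld2, a phospholipase D that binds TREK channels, rose from 4.38 ± 0.391 to 36.8 ± 2.78 FPKM, a log2 fold change of 3.86 (SE 0.06). Akap5, a kinase anchor that binds TREK-1, fell from 22.4 ± 2.33 to 1.22 ± 0.110 FPKM, with -3.29 (SE 0.08), and Psd, an exchange factor for Arf6 described with TWIK-1, had -2.32 (SE 0.06). The other genes above input were Stx8, a SNARE that binds TASK-1, with 1.71 (SE 0.09), the coat protein gene Copb1 with 1.14 (SE 0.07), and the small GTPase gene Arf6 with 0.57 (SE 0.09), which was -0.25 on the deposited scale and did not pass with upper quartile scaling.

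Genes of the Gq route, through which transmitters close TASK and TREK channels, gave 4 higher, 9 lower and 2 not passing of 15, and their median was -2.61, beside 42.9% higher, 42.5% lower and a median of 0.00 over all genes tested. Without the TMM scaling 2 were higher and 13 lower, beside 24.3% and 62.8%. The lowest values were those of the serotonin receptor genes Htr2a, with -5.09 (SE 0.14) and 0.0574 ± 0.00827 FPKM in HA IP, and Htr2c, with -4.04 (SE 0.13). Htr2a held 5 to 9 fragments in HA IP and passed the filter through its 4 inputs alone, so it could enter the test only with a higher input. The phospholipase gene Plcb3 rose from 1.997 ± 0.229 to 24.1 ± 1.78 FPKM, a log2 fold change of 4.34 (SE 0.08), and the histamine receptor gene Hrh1 had 2.02 (SE 0.11). The G protein genes Gnaq and Gna11 had 0.46 (SE 0.06) and 0.33 (SE 0.06), on the deposited scale -0.37 and -0.50, and neither passed with upper quartile scaling.

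For 5 members the genes of most similar pattern were sought, by the root mean square difference of the 4 within-animal log2 ratios among genes of similar mean level. Closest to Kcnk1 were Ivd, Pou3f3 and Psap, at 0.06, 0.09 and 0.09 among 1051 candidates. Ptger1, Galc and Dgka were closest to Kcnk2, at 0.09, 0.11 and 0.11, and S1pr2 and Ddx59 were among the closest to Kcnk10, at 0.19 and 0.28. For Kcnk9, Nptxr, Grin2a and Htr2a were closest, 0.47, 0.70 and 0.75 away among 3915 candidates. Its log2 fold change is the fourth lowest of all genes tested, so few genes could lie near it. Its ratios also rest on 4 to 11 fragments in HA IP. Wnt10b, Slco5a1 and Lrguk lay within 0.07 of Kcnk13, all at levels near the pseudocount, where ratios are compressed.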

How the data were processed

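Cortical mRNA was sequenced from input and HA IP of 4 mice. Per the submitters' processing notes, the authors used bcl2fastq 2.17, STAR, HTSeq and mm10; STAR and HTSeq versions, annotation and strand setting: not given in the sources used here. The values were read as FPKM deposited by the authors, because a whole length for each gene and a whole total for each library turned all 142235 nonzero values into whole fragments, within 0.001. Genes were tested if 4 libraries held 10 fragments, scaled to a library of median size (0.246 CPM), and all libraries together 15. FPKM were divided by TMM factors (0.3 of M-values and 0.05 of A-values trimmed, written out for this purpose), and log2(FPKM + 0.1) was fitted with limma 3.58.1 in R 4.3.3, with an intensity trend and the animal as a block, two-sided, at an adjusted p of 0.05. FPKM carry no count test here.

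Both libraries of a number come from 1 animal, per the titles; deviations from group means correlated at 0.22 to 0.40 within numbers. Ratios were tested with exact permutations (scipy 1.17.1). The fit was also run on simulated fragments with few changed genes and no animal effect. That setting differs from these data, where 42.9% of genes were higher and 42.5% lower, so it does not test the scaling here. The animals are separate. With the animal as a block, limma p-values rest on the spread of the within-animal differences over 4 mice, with variances moderated over all genes. The exact permutation p-values of ratios do not use the pairing. Members and gene lists were chosen with earlier results of these data known. Named genes were the 10 members, Aldh1l1, Rpl22, up to 3 called genes of largest change and those against the majority per partner or Gq list, and the 3 most similar genes for 5 members, of which 1 is not reported here. Rpl22 had 0.68 (SE 0.10), and -0.14 on the deposited scale. Alternatives were another pseudocount, scaling, filter or variance model, no block, and each animal left out.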

Additional observations from a re-analysis of the deposited data

Results flagged for a closer look

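In 42 groups of 4 values (each gene's FPKM in HA IP and in input and its within-animal log2 ratio, and the log2 ratio of each subfamily pair per group), 5 had 1 value far from the other 3, where about 1 in 20 such groups would be picked out by chance. Kcnk1 in input was highest in animal 595, at 48.2 FPKM, with the other inputs between 43.4 and 43.8. Kcnk3 in input was highest in animal 581, at 9.98 FPKM, with the others at 8.33 to 8.46. Kcnk4 in HA IP was highest in animal 595, at 0.924 FPKM, and its log2 ratio there was -2.56 against -3.60 to -3.45 elsewhere. Kcnk12 had its lowest log2 ratio in animal 595, at -4.27, against -3.76 to -3.67 in the other animals. The HA IP values of Kcnk4 and Kcnk12 in animal 595 rest on 54 and 10 fragments.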

How the results depend on the processing

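The 10 members kept their direction and stayed past the threshold under every alternative that could test them; with at least 1 FPKM required in 4 libraries, Kcnk5 and Kcnk13 were not tested and 5 members were lower. The fit without the replicate block changed no member's call. Over all genes, 3791 in place of 6691 were higher on the deposited scale, and 6397 to 6616 were higher and 6284 to 6543 lower with 1 animal left out. With 1 animal left out, 3 members were higher and 7 lower each time. The differences between HA IP and input in log2 subfamily ratios ran from 4.25 to 4.33 (Kcnk1/Kcnk6), 4.45 to 4.78 (Kcnk2/Kcnk4), -5.00 to -4.31 (Kcnk4/Kcnk10), 2.92 to 3.30 (Kcnk3/Kcnk9) and -2.71 to -2.39 (Kcnk12/Kcnk13), with exact p = 0.1, the smallest that 3 against 3 allows. The Kcnk2/Kcnk10 difference ran from -0.22 to 0.25 and changed sign without animal 595 (-0.22); the cause was not tested. With the replicate block as an exact sign flip over 4 animals, the smallest possible p is 0.125, reached by 4.29, 4.61, -4.52, 3.11 and -2.56 for the first 5 pairs in this order, so neither setting can pass. Pseudocounts of 0.01 and 1 FPKM moved Kcnk9 between -6.33 and -3.78. Depth limits Kcnk5 and Kcnk9 in HA IP most, at 4 to 13 fragments.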
